A study of Mus musculus with 12 samples.

Results

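The genes examined were Kit ligand (Kitl) and 8 other growth factor genes that macrophages use in tissue repair, Igf1, Pdgfa, Pdgfb, Pdgfc, Hbegf, Vegfa, Vegfb and Tgfb1. They were 9 of 38887 genes quantified by RNA-Seq in 12 libraries from bone marrow-derived macrophages (BMMs). Kitl was selected on its measured level, chosen by being higher in IGF2BP2 KO than in WT BMMs under IL-4, so its values from the IL-4-treated libraries are described without a test. The other 8 were listed by name, and all 9 passed the filter on low counts.

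Bone marrow of mice aged 3 to 4 months was cultured for 6 days with 50 ng/ml M-CSF, and the BMMs were then left untreated (M0) or given 20 ng/ml IL-4 for 8 h (M2). KO mice carried loxP sites on both sides of exons 4 and 5 of Igf2bp2 and expressed Cre recombinase from the Lyz2 locus, which is active in myeloid cells. WT mice were littermates without floxed Igf2bp2 alleles, of which some expressed Cre. Each of the 4 groups (WT M0, KO M0, WT M2 and KO M2) held 3 libraries from 3 mice, and M0 and M2 libraries with the same number appeared to come from the same mouse.

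Kit ligand, also called stem cell factor, activates the receptor tyrosine kinase KIT on haematopoietic progenitors, mast cells and melanocytes. The other factors act on neighbouring cells in a wound: IGF1 and the PDGF chains on fibroblasts and muscle, HB-EGF on epithelium through the EGF receptor, the VEGFs on endothelium, and latent TGF-β1 on many cells once it is released from its propeptide. Macrophages treated with IL-4 are known as a source of several of them.

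Values are given as CPM, counts relative to a library total scaled with the TMM method, and a gene was called when the edgeR quasi-likelihood test gave a Benjamini-Hochberg adjusted p under 0.05 over the 12846 genes tested. Totals ranged from 20011792 to 39632770 counts per library. Igf2bp2 counts cover the whole gene with the remaining exons and were 76.5 to 118 CPM in WT M0, 84.9 to 95.9 CPM in KO M0, 178 to 233 CPM in WT M2 and 129 to 146 CPM in KO M2. Lyz2, which holds the Cre insertion, was at 7030 to 10544 CPM in WT M0 but at 22.1 to 33.2 CPM in KO M0, so that the genotypes were separated by this locus, which reports the allele with Cre. Igf2bp2 overlapped between genotypes in M0 (log2 fold change -0.11, SE 0.13, edgeR adjusted p = 0.656) and was lower in KO in M2 (-0.65, SE 0.13, edgeR adjusted p = 0.0285). Exons 4 and 5 were not measured apart from the rest, so their loss was not checked in these counts. The paper reports that IGF2BP2 protein and mRNA were close to undetectable in its KO BMMs. IL-4 raised all 8 of its marker genes, such as Mrc1, in both genotypes. Bulk RNA cannot tell fewer cells that express a gene from less RNA per cell.

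Kitl lies at chr10:100015630-100100416 on the plus strand (GRCm38, GENCODE M21). Its RNA exists in 2 main coding forms, which differ in exon 6, chr10:100080857-100080940, an in-frame coding exon of 84 bases or 28 codons that encodes the main cleavage site from which the soluble factor is shed. Both are among the 3 Kitl transcripts behind the deposited gene counts, and they are shown because these counts merge them. Capitals mark exon 6, and lower case marks 20 bases of the neighbouring exons.
Kitl-202, with exon 6: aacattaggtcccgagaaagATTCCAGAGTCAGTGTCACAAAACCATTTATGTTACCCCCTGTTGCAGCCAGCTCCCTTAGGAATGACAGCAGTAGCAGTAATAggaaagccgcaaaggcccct
Kitl-201, without exon 6: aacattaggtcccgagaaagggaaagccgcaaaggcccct
The values below are those of the whole gene, and soluble and membrane-bound forms were not separated.

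Kitl expression was higher in KO than in WT BMMs already without IL-4. In M0 the WT libraries gave 85.9, 77.4 and 75.3 CPM and the KO libraries 192, 177 and 200 CPM. Every KO library lay above every WT library, and the gap between the groups was wider than the spread inside either. The log2 fold change was 1.25 (SE 0.10, edgeR adjusted p = 4.05e-05), a 2.38-fold difference. An exact two-sided permutation test of the 3 against 3 libraries gave p = 0.1, the smallest value this design allows. The M0 libraries took no part in the choice of Kitl, but they seem to come from the same mice as the M2 libraries that did.

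After IL-4, Kitl was at 70.1, 75.4 and 84.6 CPM in WT and at 238, 304 and 305 CPM in KO. The first KO library was the lowest of its group and still lay far above all WT libraries. These values chose the gene and are a description: KO exceeded WT by 1.88 on the log2 scale (SE 0.10). The log2 fold change from M0 to M2 was -0.05 (SE 0.10) in WT, whose ranges overlapped, and 0.57 (SE 0.10) in KO, whose ranges did not overlap. The plot of CPM by library shows this pattern beside the other genes.

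**Figure D1:**
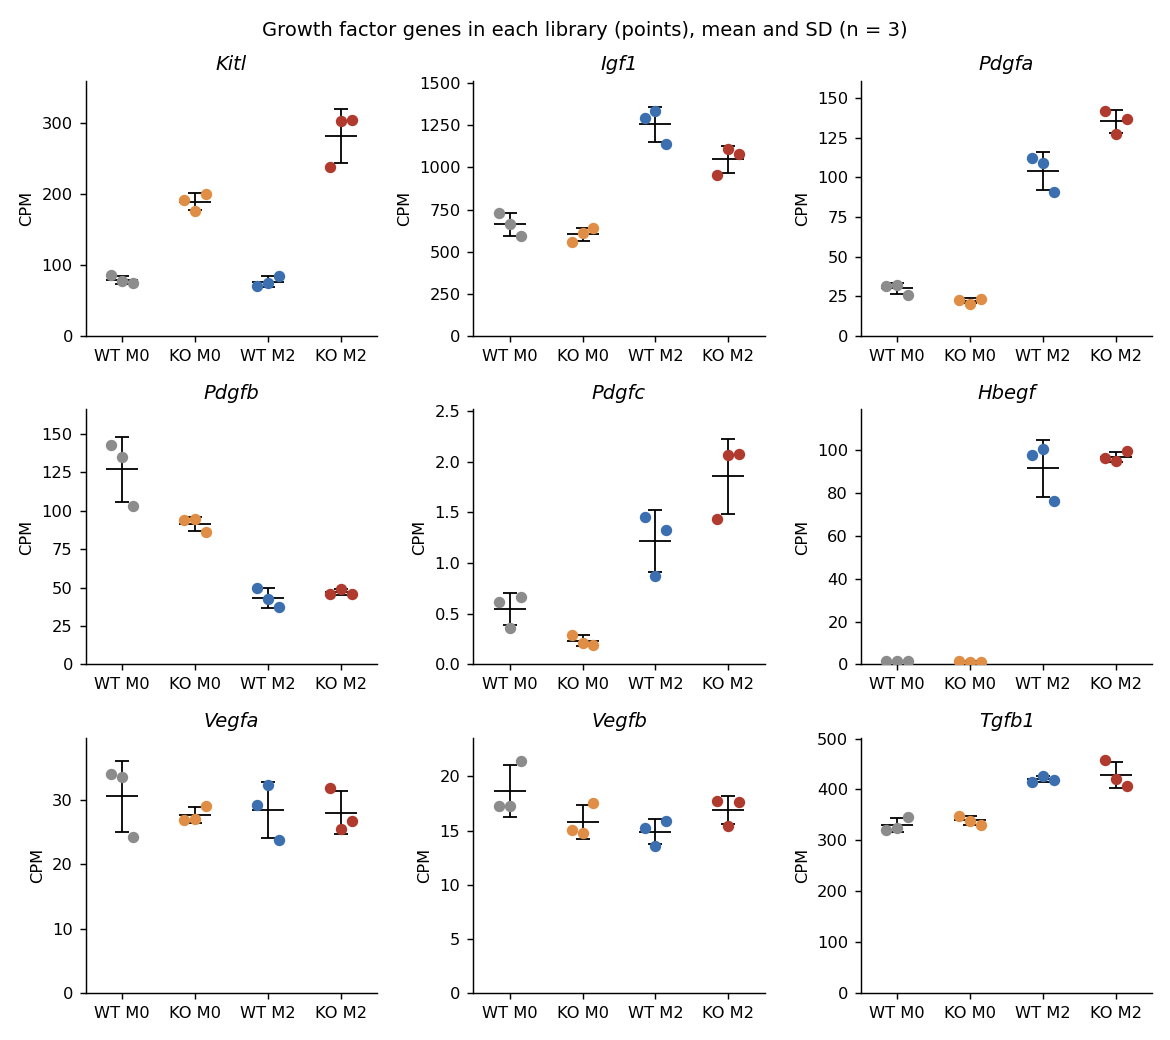
CPM (y axis, from 0, scaled per gene) of the 9 growth factor genes in each of the 12 libraries (points) of WT M0, KO M0, WT M2 and KO M2 BMMs, with the mean and SD of 3 libraries. Kitl is higher in KO in both treatments, Hbegf, Pdgfa and Pdgfc are higher in M2 than in M0, Pdgfb is lower in M2, and Vegfa overlaps among all groups.

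Kitl and Lyz2 are on the same chromosome, with 17.26 Mb between their starts. Lyz2 RNA separated the KO from the WT libraries, so loss of IGF2BP2 and the allele with Cre, including DNA linked to it, cannot be told apart for Kitl. Of 134 genes tested within 20 Mb of Lyz2, 9 (6.72%) were called between KO and WT in M0 and 2 (1.49%) in M2, against 9.78% and 2.7% on the other chromosomes. These counts hold Kitl, which was selected on its M2 values, but not Lyz2. Of the 9 in M0, 8 were higher in KO, as Kitl was, against 670 of 1197 on the other chromosomes, and whether this differs was not tested. The 6 tested genes nearest to Kitl (Tmtc3, Cep290, 4930430F08Rik, Dusp6, Galnt4 and Poc1b) were not called in either treatment. This window and these neighbours were chosen after the values were seen.

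The genes whose log2 CPM followed Kitl most closely over the 12 libraries were Tbc1d8 (Pearson r = 0.953), Wdfy1 (r = 0.953), Nckipsd (r = 0.926), Hrh2 (r = 0.912) and Derl1 (r = 0.908), out of 11353 genes compared. The libraries form 4 groups, so these values mainly describe group levels. Of these, Wdfy1 came nearest in size, with log2 differences between KO and WT of 1.36 in M0 and 1.44 in M2. Among the 5 closest genes for Igf1 were Itgb1 (r = 0.992), Mettl7a1 (r = 0.990), Adap2 (r = 0.988) and Myo1e (r = 0.987).

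In M0 the 3 PDGF genes moved in the direction opposite to Kitl. PDGF-A and PDGF-B chains form the classical dimers that drive fibroblasts and pericytes, and PDGF-C is secreted in a latent form. In all, 4 of the 9 genes were called between KO and WT in M0, 1 higher and 3 lower, where 9.78% of all genes were called, 5.5% higher and 4.27% lower. The 1 higher was Kitl, whose M2 values from what seem to be the same mice put it among the 9, and without it the count was 3 of 8. Without 1 library, 1 to 3 of the 9 were called, and limma called 2. The median log2 fold change was -0.23 for the 9 genes, against -0.000656 for all genes.

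Pdgfa was at 31.7, 32.1 and 26.1 CPM in WT M0 and at 23.0, 20.3 and 23.1 CPM in KO M0, without overlap. Its log2 fold change was -0.44 (SE 0.10, edgeR adjusted p = 0.0161), but the call was lost without the second WT library (edgeR adjusted p = 0.0861) and without the second KO library (edgeR adjusted p = 0.0791). Pdgfb was at 143, 135 and 103 CPM in WT M0 and at 93.7, 94.3 and 86.2 CPM in KO M0, also without overlap. The third WT library was nearest to the KO libraries. For Pdgfb the log2 fold change was -0.47 (SE 0.11, edgeR adjusted p = 0.0218), and only the fit without the third WT library kept this call (edgeR adjusted p = 0.00193), while the other 5 gave adjusted p between 0.0624 and 0.101.

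Pdgfc had the fewest counts of the 9 genes, with 19, 11 and 17 counts in the WT M0 libraries and 8, 8 and 7 counts in the KO M0 libraries. The log2 fold change was -1.23 (SE 0.36, edgeR adjusted p = 0.0478), and no fit without 1 library kept the call (edgeR adjusted p from 0.0503 to 0.153).

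The other 5 genes were not called in M0. Igf1 (log2 fold change -0.14, SE 0.09, edgeR adjusted p = 0.345), Vegfb (-0.24, SE 0.10, edgeR adjusted p = 0.172), Hbegf (-0.23, SE 0.20, edgeR adjusted p = 0.524), Vegfa (-0.15, SE 0.13, edgeR adjusted p = 0.543) and Tgfb1 (0.04, SE 0.05, edgeR adjusted p = 0.677) all had overlapping WT and KO libraries. For Tgfb1, with counts of 8884 to 12776 per M0 library, the small SE limits the size of any difference more tightly than for Hbegf, with 41 to 51.

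In M2 only Pdgfa was called among the 8 genes that could be tested, 1 higher and 0 lower, where 2.68% of all genes were called, 1.21% higher and 1.46% lower. Pdgfa was at 112, 109 and 90.6 CPM in WT M2 and at 142, 128 and 137 CPM in KO M2. Its direction was thus opposite to that in M0, and the log2 fold change was 0.38 (SE 0.09, edgeR adjusted p = 0.0477). The call did not survive the omission of any library (edgeR adjusted p from 0.0638 to 0.152), nor RLE size factors (edgeR adjusted p = 0.0505).

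Igf1, which encodes the main growth factor of muscle and connective tissue repair, was at 1294, 1335 and 1136 CPM in WT M2 and at 957, 1107 and 1077 CPM in KO M2. The groups did not overlap, but the log2 fold change of -0.26 (SE 0.09) did not pass the test (edgeR adjusted p = 0.123). Pdgfc (0.61, SE 0.27, edgeR adjusted p = 0.224) and Vegfb (0.18, SE 0.11, edgeR adjusted p = 0.362) overlapped between genotypes. The log2 fold changes of Pdgfb (0.11), Hbegf (0.08), Tgfb1 (0.03) and Vegfa (-0.03) were smaller than that of Vegfb, and their libraries overlapped too.

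**Figure D2:**
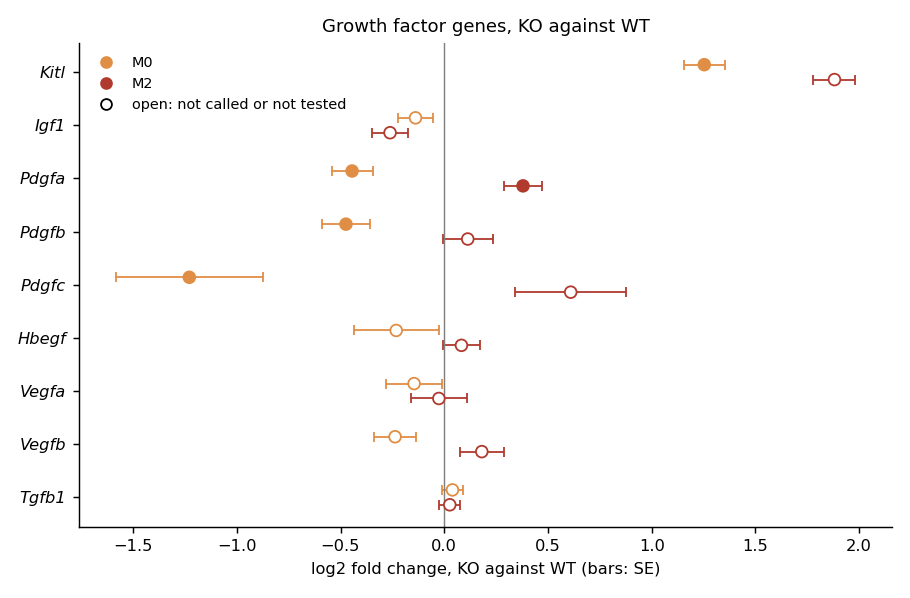
Log2 fold change of KO against WT (x axis, bars are the SE) for each growth factor gene in M0 and M2 BMMs, n = 3 libraries per group. Filled points were called by edgeR, and open points were not called or, for Kitl in M2, not tested. Pdgfa lies below 0 in M0 (-0.44) and above 0 in M2 (0.38), and Kitl lies above 0 in both (1.25 and 1.88).

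IL-4 changed most of these genes, in directions that differed between family members. In WT BMMs 5 of the 8 genes rose and 2 fell, where 50% of all genes were called, 24.9% higher and 25.1% lower. In KO BMMs 5 rose and 1 fell, where 52.8% of all genes were called, 26.8% higher and 26% lower.

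Hbegf, which encodes a membrane-anchored EGF family ligand, had the greatest rise of the 9. It was at 1.49, 1.68 and 1.60 CPM in WT M0 and at 97.8, 101 and 76.1 CPM in WT M2. In KO BMMs it went from 1.65, 1.14 and 1.33 CPM to 96.2, 95.1 and 99.5 CPM. No M2 library came near any M0 library, and the log2 fold changes were 5.85 (SE 0.13, edgeR adjusted p = 5.95e-12) in WT and 6.16 (SE 0.13, edgeR adjusted p = 4.82e-12) in KO.

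The PDGF genes split under IL-4. Pdgfa rose with log2 fold changes of 1.79 (SE 0.10, edgeR adjusted p = 1e-08) in WT and 2.62 (SE 0.10, edgeR adjusted p = 3.24e-10) in KO. Pdgfb fell, to 50.0, 42.7 and 37.3 CPM in WT M2 and to 45.9, 49.0 and 45.8 CPM in KO M2. Its log2 fold changes were -1.55 (SE 0.12, edgeR adjusted p = 3.02e-07) and -0.96 (SE 0.12, edgeR adjusted p = 1.61e-05), so that the KO and WT libraries, which did not overlap in M0, overlapped in M2. Pdgfc rose from low counts to 32, 17 and 26 counts in WT M2 and 38, 80 and 77 counts in KO M2, with log2 fold changes of 1.17 (SE 0.30, edgeR adjusted p = 0.00611) and 3.01 (SE 0.31, edgeR adjusted p = 4.04e-06).

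Because PDGF-A and PDGF-B chains pair with each other or with themselves, the ratio of their RNAs was also taken within each library. In TPM, which corrects for transcript length, Pdgfa over Pdgfb was 0.400, 0.407 and 0.460 in WT M0 and 0.443, 0.368 and 0.465 in KO M0. After IL-4 it was 3.87, 4.31 and 4.03 in WT and 5.34, 4.47 and 5.11 in KO. Pdgfb thus exceeded Pdgfa in every M0 library and Pdgfa exceeded Pdgfb in every M2 library, and only in M2 did the genotypes not overlap.

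**Figure D3:**
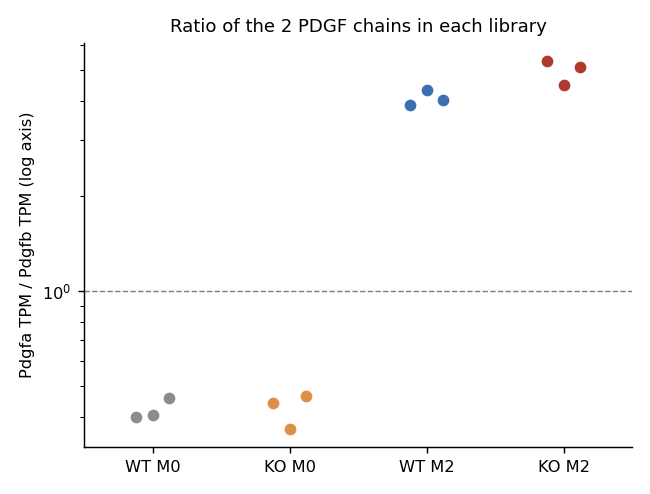
Ratio of Pdgfa to Pdgfb TPM (y axis, logarithmic) in each of the 3 libraries of WT M0, KO M0, WT M2 and KO M2 BMMs, with a dashed line at equal levels. All M0 points lie below the line and all M2 points above it, with KO M2 (4.47 to 5.34) above WT M2 (3.87 to 4.31).

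Igf1 rose with IL-4 from 730, 665 and 594 CPM to the values above in WT (log2 fold change 0.92, SE 0.09, edgeR adjusted p = 2.03e-06). In KO it rose from 559, 610 and 638 CPM, and the log2 fold change was 0.80 (SE 0.09, edgeR adjusted p = 6.11e-06). Tgfb1 rose less, from 320, 324 and 346 CPM to 415, 427 and 419 CPM in WT (log2 fold change 0.35, SE 0.05, edgeR adjusted p = 8.58e-05). The KO values for Tgfb1 were 349, 339 and 330 CPM in M0 and 457, 421 and 406 CPM in M2 (log2 fold change 0.34, SE 0.05, edgeR adjusted p = 0.000103).

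The VEGF genes showed little change. Vegfa, the main angiogenic factor of macrophages, was at 34.0, 33.6 and 24.2 CPM in WT M0, 29.3, 32.4 and 23.8 CPM in WT M2, 26.9, 27.1 and 29.2 CPM in KO M0 and 31.9, 25.6 and 26.8 CPM in KO M2. All 4 groups overlapped, and the IL-4 log2 fold changes were -0.11 (SE 0.14, edgeR adjusted p = 0.556) in WT and 0.01 (SE 0.13, edgeR adjusted p = 0.941) in KO. Vegfb, whose product binds the receptor FLT1, fell in WT from 17.2, 17.3 and 21.4 CPM to 15.2, 13.6 and 15.9 CPM (log2 fold change -0.32, SE 0.11, edgeR adjusted p = 0.0248). That call was lost without the third WT M0 library (edgeR adjusted p = 0.105) or without the second WT M2 library (edgeR adjusted p = 0.103). In KO BMMs the log2 fold change of Vegfb was 0.10 (SE 0.10, edgeR adjusted p = 0.449).

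**Figure D4:**
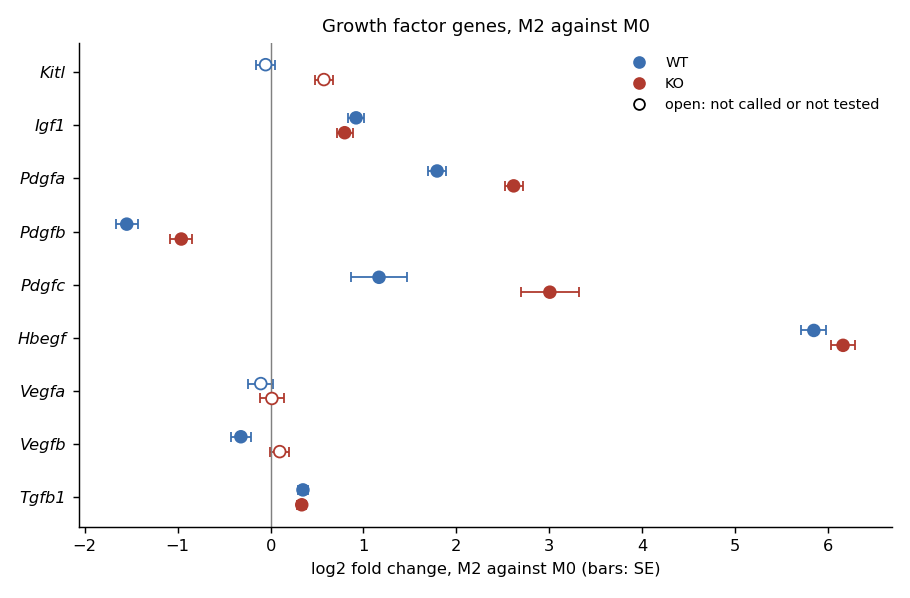
Log2 fold change of M2 against M0 (x axis, bars are the SE) for each growth factor gene in WT and KO BMMs, n = 3 libraries per group. Filled points were called by edgeR, and open points were not called or, for Kitl, not tested. Hbegf has the greatest change in both genotypes (5.85 and 6.16), and Pdgfb is the gene that fell in both (-1.55 and -0.96).

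Whether the response to IL-4 differed between genotypes was tested as an interaction. Of the 8 genes, 2 were called, both with the higher value in KO, where 3.24% of all genes were called, 1.11% higher and 2.13% lower. For Pdgfa the difference between the log2 responses was 0.82 (SE 0.13, edgeR adjusted p = 0.00755), and this call remained without any single library (edgeR adjusted p from 0.00389 to 0.0314). For Pdgfc it was 1.84 (SE 0.44, edgeR adjusted p = 0.0436), and 9 of the 12 fits without 1 library lost the call (adjusted p up to 0.123).

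Pdgfb, with a difference of 0.59 (SE 0.17, edgeR adjusted p = 0.0771), was called only in 5 of 19 other fits, 1 of them with the mouse as a block (edgeR adjusted p = 0.0028). Of the fits without 1 library, those without the third WT M0 library (edgeR adjusted p = 0.0111) and the first WT M2 library (edgeR adjusted p = 0.0415) called it. Vegfb (0.42, SE 0.15, edgeR adjusted p = 0.157) was called in the block fit alone (edgeR adjusted p = 0.038). With the mouse as a block, 4 of the 8 genes were thus called, where 7.81% of all genes were. Hbegf (0.31), Vegfa (0.12), Igf1 (-0.12) and Tgfb1 (-0.01) were not called in either fit. The difference for Kitl was 0.63 (SE 0.14), given as a description.

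The levels of the 9 genes were compared with each other in TPM. Igf1 (median 717 TPM) and Tgfb1 (289 TPM) were the most abundant in WT M0, followed by Pdgfb (86.7 TPM), Pdgfa (35.3 TPM), Kitl (28.8 TPM), Vegfb (28.7 TPM) and Vegfa (24.1 TPM), whereas Hbegf (1.21 TPM) and Pdgfc (0.37 TPM) were low. The library ranges of Pdgfa and Kitl overlapped, as did those of Kitl and Vegfb. In KO M0, Kitl (75.6 TPM) stood directly below Tgfb1 (294 TPM) and above Pdgfb (59.5 TPM), and these ranges did not overlap.

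In WT M2 the order was Igf1 (1409 TPM), Tgfb1 (349 TPM), Pdgfa (112 TPM) and Hbegf (73.9 TPM). Kitl (26.9 TPM), Pdgfb (25.9 TPM), Vegfb (22.8 TPM) and Vegfa (21.1 TPM) followed, each overlapping with its neighbour, and Pdgfc (0.77 TPM) was last. In KO M2 the order was Igf1 (1127 TPM), Tgfb1 (354 TPM), Pdgfa (141 TPM), Kitl (112 TPM) and Hbegf (72.2 TPM), with no overlap among these 5. Kitl was thus above Hbegf in KO M2 but below it in WT M2. The abundance-weighted transcript length of Kitl was 4509 to 5012 nt over all libraries and overlapped among the groups.

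The pathways around these ligands were followed in 5 lists. They held receptors, binding proteins, proteins of shedding, cleavage and activation, other growth factors, and SMAD genes with other regulators of TGF-β signalling. Of their 100 genes, 71 could be tested. Between KO and WT in M0, 1 of these rose and 10 fell (15.5%, against 9.78% of all genes). The count was 7 to 16 when 1 library was left out, and 7 of the 11 genes kept their call in all of these fits. In M2, edgeR called 0 of them (0.0%, against 2.68% of all genes), while 21 had an unadjusted p under 0.05. There DESeq2 called 6 and limma 0, and the edgeR count was 0 to 1 when 1 library was left out.

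Of the 16 receptors tested, edgeR called 0 between KO and WT in either treatment, as did limma. DESeq2 called 1 in each, and edgeR with the replicate number as a block called Igf1r in M0 (log2 fold change -0.61, SE 0.17, edgeR adjusted p = 0.0464), where the number did not pair the mice. Without the block Igf1r had an edgeR adjusted p of 0.0539. In the fit without the block the edgeR unadjusted p was under 0.05 for 2 in M0 and 4 in M2. Kit, the receptor of Kit ligand, was at 0.312 to 0.526 CPM in WT M0 and 0.159 to 0.221 CPM in KO M0, which held 40 and 20 counts in all. The ranges did not overlap, but the log2 fold change of -1.18 (SE 0.39) did not pass the test (edgeR adjusted p = 0.0758). In M2 Kit was at 0.361 to 0.772 CPM in WT and 0.226 to 0.404 CPM in KO, with overlap. Of 9 binding proteins, 2 were called in M0 (22.2%, against 9.78% of all genes). Igfbp4, which sequesters IGFs, fell in KO M0 from 210 to 221 CPM to 157 to 166 CPM (log2 fold change -0.42, SE 0.04, edgeR adjusted p = 0.000222). Nrros, which anchors latent TGF-β1 on macrophages and microglia, rose from 172 to 190 CPM to 212 to 214 CPM (log2 fold change 0.24, SE 0.04, edgeR adjusted p = 0.00616). Both kept their calls without any single library.

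Of 15 genes of shedding, cleavage and activation, 3 integrin β chains fell in KO M0 (20%, against 9.78% of all genes called and 4.27% called lower). Itgb3, whose product pairs with αv and can activate latent TGF-β, fell from 1.4 to 1.71 CPM to 0.588 to 0.830 CPM (log2 fold change -1.07, SE 0.17, edgeR adjusted p = 0.00311). Itgb8 (-1.48, SE 0.41, edgeR adjusted p = 0.04) and Itgb5 (-0.37, SE 0.10, edgeR adjusted p = 0.0302) each lost the call in 5 of the 6 fits without 1 library (edgeR adjusted p up to 0.154 and 0.121). Itgb8 held only 27 counts in all in WT M0 and 11 in KO M0. Of 19 other growth factors, 2 were called in M0 (10.5%, near the share of all genes). Csf1, the gene of M-CSF, fell in KO M0 from 8.99 to 10.7 CPM to 4.08 to 5.91 CPM (log2 fold change -1.06, SE 0.14, edgeR adjusted p = 0.000765). The medium held added M-CSF in all groups. Vegfc, a lymphangiogenic factor, fell too (log2 fold change -0.54, SE 0.14, edgeR adjusted p = 0.0286), a call that was lost in 4 of 6 such fits (edgeR adjusted p up to 0.114).

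Of the 12 SMAD genes and regulators, 4 were called in M0, all lower in KO (33.3%, against 9.78% of all genes called and 4.27% called lower). Smad6, an inhibitory SMAD, fell from 10.8 to 14.9 CPM to 3.84 to 4.37 CPM (log2 fold change -1.58, SE 0.19, edgeR adjusted p = 0.000522). Skil, a repressor of SMAD transcription, fell by 0.59 on the log2 scale (SE 0.10, edgeR adjusted p = 0.0034), and Pmepa1, a TGF-β-induced inhibitor, fell by 1.84 (SE 0.35, edgeR adjusted p = 0.00757). Pmepa1 was low, with 83 counts in all in WT M0 and 26 in KO M0, and was called in 12 of 14 other fits. Smad3, the TGF-β signal transducer, fell by 0.47 (SE 0.12, edgeR adjusted p = 0.0291) but lost the call in 5 of 6 fits without 1 library (edgeR adjusted p up to 0.115). Tgfb1 itself, as given above, was not called.

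**Figure D5:**
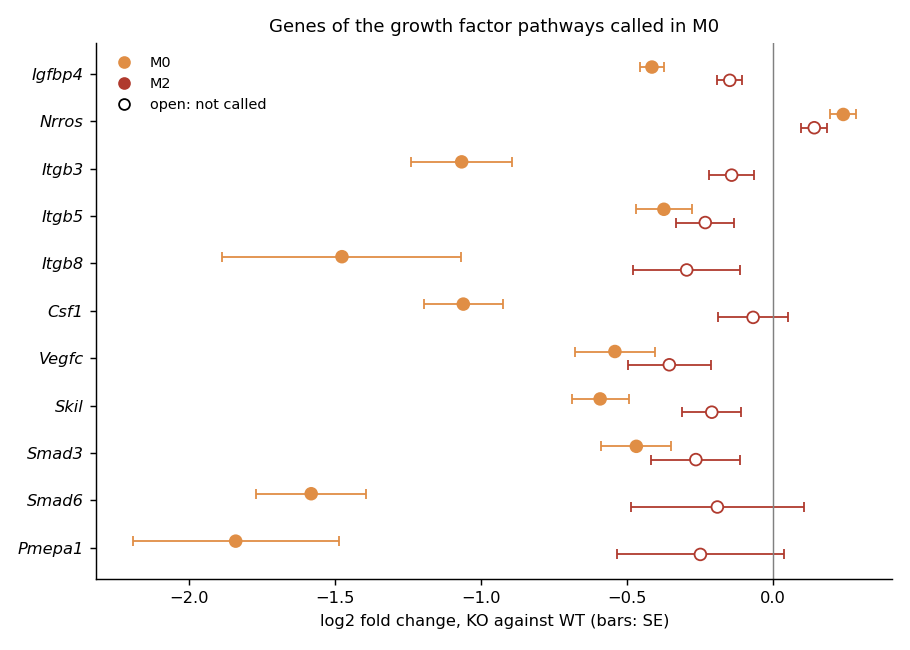
Log2 fold change of KO against WT (x axis, bars are the SE) in M0 and M2 BMMs for the 11 pathway genes called in M0, n = 3 libraries per group. Filled points were called by edgeR and open points were not. In M0 all but Nrros (0.24) lie below 0, and in M2 all points are open.

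IL-4 changed the pathway genes in both directions, with 26 higher and 18 lower in WT (62% called, against 50% of all genes) and 26 higher and 21 lower in KO (66.2%, against 52.8%). Of the 16 receptors, 3 rose and 5 fell in WT (50%), and 4 rose and 6 fell in KO (62.5%). Flt1, the receptor for VEGF-A, VEGF-B and PlGF, went from 0.460 to 0.744 CPM in WT M0 to 227 to 239 CPM in WT M2 (log2 fold change 8.61, SE 0.15, edgeR adjusted p = 1.56e-12), and in KO it rose by 8.75 (SE 0.16, edgeR adjusted p = 1.68e-12). Pgf, which encodes PlGF, rose by 2.04 in WT and 1.79 in KO, and Angpt1, an angiopoietin that stabilises vessels, by 4.40 and 3.86. Tgfbr1, a TGF-β receptor, fell by 0.88 and 1.24, and Igf1r by 0.72 and 0.49. The edgeR adjusted p of Igf1r in KO was 0.0463, and that of Egfr, which fell by 0.64 in WT, was 0.0498. Each of these 2 calls was lost in 5 of 6 fits without 1 library (edgeR adjusted p up to 0.171 and 0.156).

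Over all genes tested, IL-4 calls were 50% in WT and 52.8% in KO. Of the binding proteins 3 rose and 3 fell in each genotype (66.7%). Of the genes of shedding, cleavage and activation 8 rose and 4 fell in WT and 7 rose and 5 fell in KO (80% each). Among those that rose, Lrrc32, which presents latent TGF-β on the cell surface, went up by a log2 of 4.10 in WT and 4.81 in KO, Nrros by 1.20 and 1.1, Itgb3 by 4.89 and 5.81, and Itgb8 by 4.21 and 5.39. Ltbp4 rose by 2.34 and 2.64, whereas Ltbp1 fell by 2.01 and 2.0, and Ltbp2 fell by 1.1 and 1.34. The Ltbp2 call in WT was lost in 1 of 6 fits without 1 library (edgeR adjusted p up to 0.0533). Itgav, the αv partner of these β chains, fell by 0.70 and 0.52, and Itgb5 by 0.46 and 0.32, with the Itgb5 call in KO lost in 2 of 6 such fits (edgeR adjusted p up to 0.0637). Ltbp1 and Itgav are named after their values were seen. Of the 12 SMAD genes and regulators, 4 rose and 4 fell in WT (66.7%), and 4 rose and 5 fell in KO (75%). Smad6 fell by 3.73 in WT and 2.34 in KO, and Smurf1, which encodes a ubiquitin ligase of SMADs, rose by 0.80 and 0.82. Smad3 fell by 2.32 in WT and fell by 2.12 in KO. Pmepa1 rose in KO by 2.33, while its 0.74 in WT did not pass the test (edgeR adjusted p = 0.0578), and the difference between the responses did not pass either (1.59 on the log2 scale, edgeR adjusted p = 0.0812). The metalloproteinase gene Mmp14 fell by 1.75 and 2.16. Of the other growth factors 8 rose and 2 fell in each genotype (52.6%, near the share of all genes), among them Bmp2, which rose by 1.35 and 1.20. Apart from Pmepa1 in WT, the changes given here had an edgeR adjusted p under 0.05.

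The responses of 4 of the 71 pathway genes differed between genotypes (5.6%, against 3.24% of all genes), all with the higher value in KO. Csf1 rose by a log2 of 1.16 in WT and 2.15 in KO, a difference of 0.99 (SE 0.18, edgeR adjusted p = 0.0128) that was called in every fit without 1 library. Itgb3 differed by 0.93 (SE 0.19, edgeR adjusted p = 0.0218), Furin, a convertase that cleaves the TGF-β1 and PDGF precursors, by 0.41 (SE 0.09, edgeR adjusted p = 0.026), and Igfbp4 by 0.27 (SE 0.06, edgeR adjusted p = 0.0332). They lost the call in 2, 6 and 9 of 12 such fits, and the count of 4 ranged from 2 to 7. With the mouse as a block the count was 8, where 7.81% of all genes were called. The block fit added Plau (difference 0.65, edgeR adjusted p = 0.00509), Skil (0.38, edgeR adjusted p = 0.02) and Smad6 (1.39, edgeR adjusted p = 0.0317), and in the other direction Mmp9 (-0.59, edgeR adjusted p = 0.0141).

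The promoters of the members were searched in RefSeq windows on GRCm38.p6, from 250 bases before to 50 bases after each annotated start, which held 7 of the 9 genes in 9 windows. Pdgfb and Hbegf, the gene with the greatest rise under IL-4, had no window and were not searched. The STAT6-type motif, with TTC and GAA 4 bases apart, was in 0 of these 7 genes and in 6.95% of all 32851 windows. The HIF-type motif ACGTG, on either strand, was in Vegfa alone and in 19.6% of all windows. Sites outside these windows were not searched.

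Markers of other cells moved with some of these results, and their part in them was not tested. Summed over 10 stromal markers, the level was 32 to 57.1 CPM in WT M0 and 8.77 to 32.4 CPM in KO M0, and 35.3 to 64.3 CPM in WT M2 and 9.91 to 28.6 CPM in KO M2. The stromal sums overlapped between genotypes in M0 and were lower in KO in M2. Stromal cells are a known source of Kit ligand, and their part in the Kitl values was not tested. Of the 7 stromal markers that could be tested, edgeR called 0 between KO and WT in either treatment, with 0 in M0 and 5 in M2 at an unadjusted p under 0.05. DESeq2 called 0 in M0 and 1 in M2, and limma 0 in both. The 8 mast cell markers, with Kit among them, summed to at most 2.32 CPM in any library, with Cpa3, Mcpt4, Tpsb2 and Fcer1a at 0 counts.

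Platelets store PDGF, and 6 of 8 megakaryocyte and platelet markers were under 0.5 CPM in every library, with Gp9 at 0 counts. The sum of these 8 was 322 to 433 CPM in WT M0 and 407 to 428 CPM in KO M0, and 340 to 358 CPM in WT M2 and 432 to 494 CPM in KO M2. The M2 sums did not overlap and were higher in KO, as Pdgfa was. In M0 the sums overlapped, while Pdgfa was lower in KO. Of the 3 platelet markers tested, Pf4 was called in M2 (log2 fold change 0.38, SE 0.09, edgeR adjusted p = 0.0414), and Ppbp was not (0.75, SE 0.23, edgeR adjusted p = 0.101). Neutrophil markers summed to 6.66 to 16.4 CPM in WT M0 and 4.59 to 4.8 CPM in KO M0, with Ly6g at 0 counts. Of 3 tested, 2 were called lower in KO M0, where the PDGF genes were lower too and 4.27% of all genes were called lower. In M2 the neutrophil sums overlapped, at 3.37 to 9.22 CPM in WT and 3.66 to 4.55 CPM in KO, and 0 of the 3 were called. The 8 endothelial markers summed to 46.4 to 55.2 CPM in WT M0 and 94.8 to 129 CPM in WT M2, and to 52.6 to 57.7 CPM in KO M0 and 102 to 117 CPM in KO M2, so that the sum was higher with IL-4, as Flt1, Angpt1 and Pdgfa were. Of the 4 tested, Vwf rose with IL-4 (log2 fold change 1.36 in WT and 1.24 in KO), while Cdh5 (-1.20 and -1.51) and Kdr (-0.68 and -0.72) fell, all with an edgeR adjusted p under 0.05. In every library 4 of the 8 were under 0.5 CPM. The 8 lymphocyte markers summed to at most 0.106 CPM. All 10 macrophage markers were above 0 counts in every group. Their sum was about 12700 to 16000 CPM in WT M0 and 5660 to 5810 CPM in KO M0, and 10500 to 11200 CPM in WT M2 and 5930 to 6110 CPM in KO M2, and it holds Lyz2, which was called lower in KO in both treatments. Of the others, Itgam was called in M0 (log2 fold change 0.45, SE 0.08, edgeR adjusted p = 0.00396).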

How the data were processed

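BMM RNA was poly(A)-selected, and directional libraries were sequenced as single reads of 75 nt. Per the labels and the methods of the study, reads were checked with FastQC 0.11.2 and aligned to GRCm38, and the authors tested with DESeq2 1.40.2. The authors deposited for each library the expected counts per gene (estimated reads, divided among genes where they match several), TPM, FPKM and lengths. The deposited tables of 4 comparisons hold the authors' fold changes and p-values, which were not used except for gene symbols. For all 9 members the files give a read-assignment SD of 0.

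Groups came from the sample titles and labels, with 3 libraries each. Expected counts were rounded, filtered with filterByExpr by group and scaled with TMM, and 12846 genes were fitted with edgeR 4.0.16 in R 4.3.3 (quasi-likelihood test with 1 mean for each group and all 12 libraries, biological coefficient of variation 8.08%, Benjamini-Hochberg adjustment over all genes). Depth was lowest in WT M2 (20011792 to 22744704 counts per library) and higher in WT M0 (24942666 to 29832430), KO M0 (26568719 to 37054582) and KO M2 (27347077 to 39632770). The main fit treated the 12 libraries as independent, with 1 estimate of the spread shared by the 4 groups of 3 mice. Its tests of IL-4 and of the difference between responses thus did not use the pairing of M0 and M2 libraries. The fit with the mouse as a block did. Deviations from group means of M0 and M2 libraries with the same number correlated at 0.331, 0.103 and 0.364 in WT and 0.166, 0.160 and 0.209 in KO, so that the number was taken as the mouse. Between WT and KO they lay between -0.068 and 0.040.

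Alternatives were DESeq2 1.42.0, RLE size factors, no filter, at least 1 CPM in 3 libraries, limma 3.58.1 on log2(TPM + 1) and log2(TPM + 0.1) of genes with a mean TPM of at least 0.5, a replicate block, only the 6 libraries of a comparison, and leaving out each library. Only the main edgeR fit was also run on simulated counts, and the outcome is not given here. Permutation used scipy 1.17.1. The members, lists and named genes were chosen with earlier results of these data known. Named pathway genes are those called between genotypes or in the difference between responses, and per list the 3 called genes with the greatest IL-4 change at a mean of at least 1 CPM. Coordinates are from GENCODE M21. Some genes are not reported here, and 1 of them was left out of the pathway lists and their counts.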

Additional observations from a re-analysis of the deposited data

Results flagged for a closer look

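The response to IL-4 differed between KO and WT BMMs for 6 of the named genes, by the test of the difference itself, in which 3.24% of all genes were called. The 4 pathway genes among them were named partly for this call, so the count of 6 is a description. On the log2 scale the response in KO minus that in WT was 0.824 for Pdgfa, 1.839 for Pdgfc, 0.993 for Csf1, 0.41 for Furin, 0.267 for Igfbp4 and 0.925 for Itgb3. In Pdgfa and Csf1 the difference was called in each of the 12 fits without 1 library, whereas it was lost in 9 of 12 for Pdgfc, which had 7 to 80 counts per library, in 2 for Itgb3, in 6 for Furin and in 9 for Igfbp4. The limma fits called 0 of the pathway genes. Why the responses differed was not tested.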

How the results depend on the processing

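Kitl was higher in KO than in WT M0 BMMs in all 14 alternatives (log2 fold change 1.21 to 1.31 without 1 library, edgeR adjusted p from 8.63e-05 to 0.000643), with adjusted p from 1.78e-31 to 0.00133 over all of them. The order of the genes by TPM was the same with posterior mean TPM and with TMM-scaled counts per kilobase. Counts of calls moved more. Among the 9 genes, limma on log2(TPM + 1) or log2(TPM + 0.1) called 2 in M0. Among the 8 without Kitl, 0 were called in M2 with RLE size factors, either limma fit or only the 6 libraries, and 1 in the difference between responses with either limma fit. Among pathway genes the limma fits called 5 and 6 in M0 and 0 in the difference, and in M2 DESeq2 called 6 and no filter 2, while DESeq2 called 7 in the difference. Over all genes the limma fits called 699 and 673 in M0, 63 and 53 in M2, and 118 and 126 in the difference, DESeq2 called 717 in M2 and 825 in the difference, and only the 6 libraries gave 165 in M2. The cause of these shifts was not tested. With a replicate block, in which M0 and M2 libraries of 1 mouse were paired, the difference was called for 4 of the 8 genes, 8 pathway genes and 1003 of all genes. The block by number for KO against WT called 2 pathway genes in M2 and lost Pdgfc in M0 (edgeR adjusted p = 0.0619), and there the number did not pair the mice.

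Without 1 library, 1 to 3 of the 9 genes were called in M0, and of the 8 genes 0 in M2, 6 to 7 and 6 with IL-4 in WT and KO, and 1 to 3 in the difference. The ranges for pathway genes were 7 to 16 in M0, 0 to 1 in M2 and 2 to 7 in the difference, and for all genes 461 to 1461, 25 to 298 and 183 to 643. Among other values of the 9 genes, 593 kept their direction and their side of the threshold, 45 lost and 6 gained a call, and 16 changed sign, 0 of them called in either fit. In M2 the log2 fold change of KO against WT for Vegfa was 0.057 and 0.060 with the limma fits and -0.138 to 0.076 without 1 library. Without 1 library it was -0.033 to 0.158 for Hbegf, -0.022 to 0.063 for Tgfb1, -0.158 to 0.008 for Csf1 and -0.471 to 0.180 for Smad6. The IL-4 response of Vegfa was then -0.246 to 0.009 in WT and -0.082 to 0.080 in KO, and the difference between responses of Tgfb1 was -0.062 to 0.024. Pdgfc had 7 to 80 counts per library, the fewest of the 9 genes, and the part of depth in its lost calls was not tested.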
